A study of Mus musculus with 14 samples.

Results

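Liver of Snell dwarf mice was compared with liver of wild type mice at the age of 6 months. The comparison rests on 8 of the 14 arrays of the series, chosen by their labels: 4 arrays labelled as dwarf liver of 6 months (animals 83, 85, 87 and 89) and 4 labelled as wild type liver of 6 months (animals 82, 84, 86 and 88). The other 6 arrays, 3 dwarf and 3 wild type livers of 22 months, entered the fit and are used below only to ask whether a difference seen at 6 months differs between the ages. Each array held biotin-labelled total RNA from snap frozen liver of 1 mouse on an Affymetrix chip with 12488 probe sets, and the values are MAS5 signals. Dwarf mice are Pit-1 mutants and the wild type mice are their controls. The labels give no sex, strain, allele, feeding state, collection time or batch, and no group in which a single hormone was missing or replaced, so the parts played by the separate hormones cannot be told apart here.

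Pit-1 is the pituitary transcription factor encoded by Pou1f1. Without it the pituitary does not form its somatotrophs, lactotrophs and thyrotrophs, so a Snell dwarf grows up short of growth hormone and of thyroid hormone. In liver, growth hormone acts through its receptor, the kinase JAK2 and the transcription factor STAT5 to drive IGF-1 and its carrier protein, and its pulsed release in males and steadier release in females sets which cytochromes P450, sulfotransferases and urinary proteins each sex makes. Thyroid hormone acts on nuclear receptors in hepatocytes and is known for driving lipogenesis, the type 1 deiodinase and malic enzyme.

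The 8 arrays were scaled alike by the authors. Array pairs correlated at 0.914 to 0.93 within dwarf, 0.915 to 0.951 within wild type and 0.838 to 0.906 between the genotypes. These correlations were taken over the 7227 tested probe sets, on log2 signals with the floor described below. The low end of the scale sat higher in dwarf liver, with a median signal per array of 204 ± 14.3 against 177 ± 3.93 (SD, n = 4 each) and a 25th percentile of 65.2 ± 7.76 against 52.6 ± 3.01 (exact two-sided permutation p = 0.0286 for each, the smallest that 4 against 4 arrays allow, adjusted p = 0.0571 over 6 array measures). Wild type animal 88 stood apart from the other 7 in its 18S ribosomal RNA control (272, against 149 or less) and in its ratio of 3' to 5' signal for beta-actin, which reads how intact the labelled RNA was (1.16). That ratio was 2.51 ± 0.209 in dwarf and 1.87 ± 0.602 in wild type liver (SD, n = 4 each, exact permutation p = 0.143, adjusted p = 0.214). Xist, the RNA of the inactive X chromosome, lay below the floor on all 14 arrays (6.7 to 23), while the Y-linked Uty (111.8 to 316.3) and Eif2s3y (307.9 to 1055.7) lay above it on all 14. The Y-linked Kdm5d lay above the floor on 10 of 14. At 6 months Kdm5d read 34.2 to 66.5 in dwarf and 75.5 to 199.9 in wild type liver. The number of arrays limits the precision, and the p-values below measure the spread between these mice. In a piece of whole liver, fewer cells of a type and less RNA per cell cannot be told apart.

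Signals below a floor of 54.9 (the 25th percentile of all arrays) were raised to it, and differences are dwarf minus wild type on the log2 scale with the standard error from limma, or the same difference as a fold. A gene was called when its Benjamini-Hochberg adjusted p over all tested probe sets was under 0.05, and "rose", "fell", "higher" and "lower" refer to called genes. Where single values are listed, those of dwarf liver come in the order of animals 83, 85, 87 and 89 and those of wild type liver in the order 82, 84, 86 and 88. Signals of different genes come from different probes and are not set against each other.

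Of 5473 genes tested, 345 were higher in dwarf liver (6.30%) and 388 were lower (7.09%). The median log2 difference over all tested genes was 0.09, and over the called genes it was 0.80 among the higher and -0.81 among the lower. Most changes were moderate: 117 genes rose and 154 fell by a log2 of 1 or more, 19 rose and 36 fell by 2 or more, and 7 rose and 15 fell by 3 or more. Of the called genes, the 4 dwarf arrays did not overlap the 4 wild type arrays for 291 of 345 higher and 337 of 388 lower ones, against 9.30% (dwarf higher) and 8.06% (dwarf lower) of all tested genes. Calls and overlap were read from the same arrays, so a lack of overlap adds no separate support to a call. The balance of directions depended on scaling. With the arrays as deposited, 460 probe sets were higher and 502 lower, which is 47.8% of calls higher, and with each array set to a common median it was 188 and 846, or 18.2%, as the median of all probe sets moved from 0.10 to -0.10. Without animal 88 the counts were 405 and 458.

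On or off patterns were rare. Among all probe sets, 2 were above the median of all signals on the 4 arrays of one genotype and at or below the floor on the 4 arrays of the other, both of them on in wild type liver: those of Serpina12, which encodes the adipokine vaspin, and 1 of the 3 probe sets of Egfr, the receptor for epidermal growth factor. Serpina12 had signals of 30.3, 38.2, 36.7 and 37.1 in dwarf liver and 2170.3, 2519.6, 2676 and 1632 in wild type liver, at least 40.3-fold lower. The 3 probe sets of Egfr gave log2 differences of -2.68, -4.20 and -4.48, and on the brightest of them the 4 dwarf arrays read 61.8, 56.9, 37.9 and 50.9 against 1156, 1200.2, 1371 and 1372. No overlap between genotypes was seen on any of these probe sets.

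**Figure D1:**
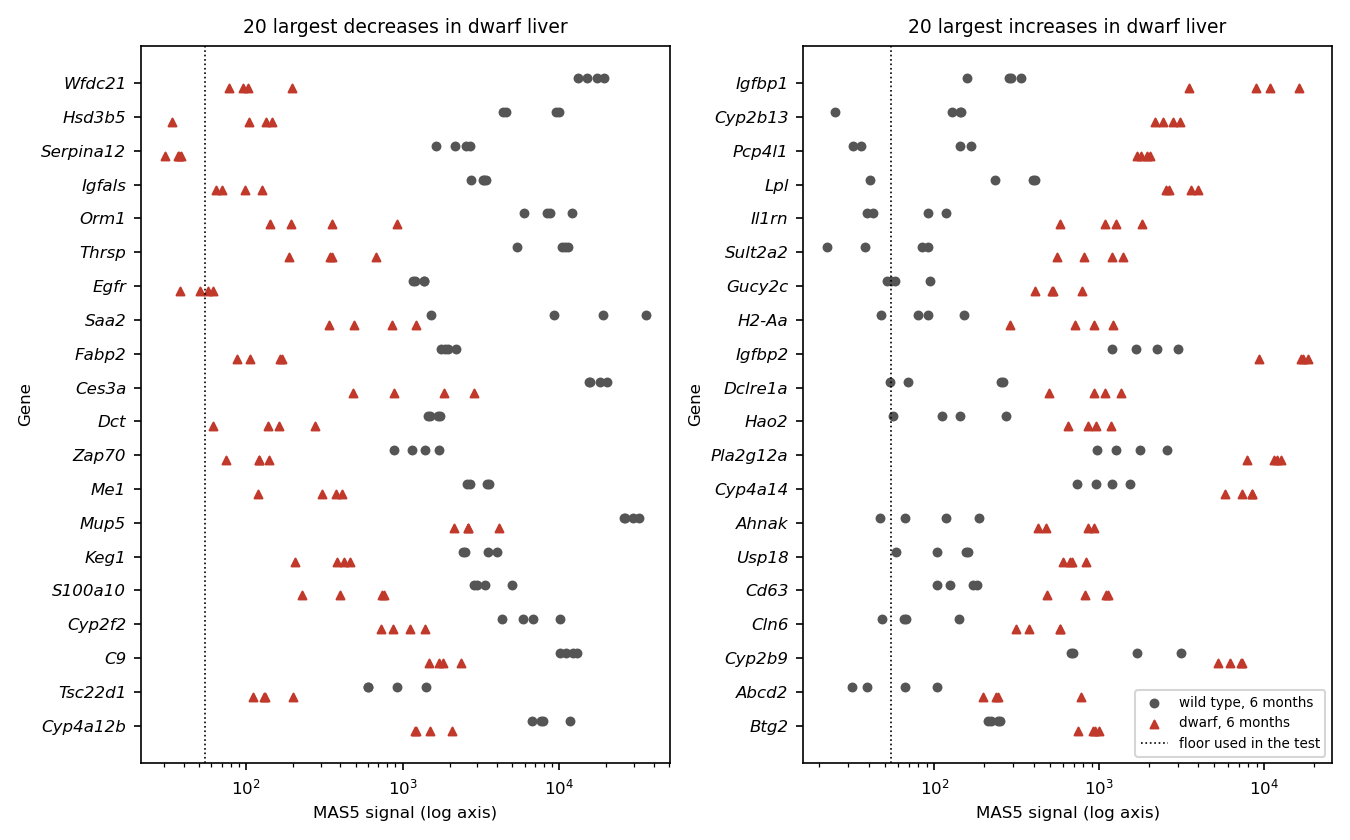
MAS5 signal (log axis) of each 6-month array for the 20 called genes with the largest decreases (left) and increases (right) whose arrays did not overlap, with wild type liver as grey circles, dwarf liver as red triangles and the floor of 54.9 as a dotted line. Wfdc21 reads 13104 or more in each wild type mouse and 196 or less in each dwarf mouse, and the 4 dwarf points of Serpina12 lie left of the floor.

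The largest decrease of all was in Wfdc21 (log2 -7.18 ± 0.25), and those of Hsd3b5, Igfals, Orm1 and Thrsp, described with their groups below, also passed a log2 of 4. Wfdc21, a small secreted whey acidic protein-domain protein, read 196, 95.6, 103 and 78.2 in dwarf and 19404, 17318, 13104 and 15077 in wild type liver. Fabp2, an intestinal-type fatty acid binding protein, was 15.2-fold lower (106, 170.1, 87.2 and 165 against 2184, 1954, 1863 and 1749). Ces3a, a carboxylesterase of the endoplasmic reticulum, was 14.2-fold lower, with dwarf values that spanned 879, 2874, 1834 and 479 against 15804, 20105, 18248 and 15522. In Ces3a the dwarf mice spread widely while the wild type mice stood close together. S100a10, the light chain partner of annexin A2, was 7.28-fold lower (756, 738, 397 and 226 against 4975, 3364, 2976 and 2838). A dimmer probe set of S100a10, with means of 214 in dwarf and 189 in wild type liver, was not called (0.13 ± 0.29). Further genes with large decreases, Dct (log2 -3.51 ± 0.41) and Zap70 (-3.49 ± 0.27), are best known from melanocytes and T cells. Zap70 read 140.2, 121, 121 and 74.2 against 1148, 1397, 1708 and 878 on a probe set whose suffix marks it as able to detect related transcripts. A dimmer probe set of Zap70 also fell (-1.89 ± 0.33), and another was not called (0.23 ± 0.35, means of 263 in dwarf and 221 in wild type liver). Of the other markers of T and NK cells, Cd3g and Cd8a lay below the floor on all 8 arrays, Cd3d on 7 of 8, and none of Cd4, Thy1 and Gzmb was called.

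The larger increases were again mixed. Pcp4l1, a calmodulin-binding peptide gene, read 1691, 1954, 2032 and 1801 in dwarf and 144, 35.7, 166 and 32.1 in wild type liver. Cd63, a tetraspanin of late endosomes, was 5.9-fold higher (1129, 483, 819 and 1093 against 125, 181, 172 and 104), and Ahnak, a giant scaffold protein, was 6.68-fold higher (853, 426, 475 and 924 against 66.8, 46.8, 185 and 118). Pla2g12a, a secreted phospholipase A2, rose 7.05-fold (11905, 7872, 11541 and 12661 against 1265, 1756, 2580.0 and 968), though its probe set may also detect related transcripts. Dclre1a, a DNA cross-link repair nuclease, rose 7.21-fold, Cln6, a membrane protein of the endoplasmic reticulum, 5.81-fold and Gucy2c, the guanylin receptor, 8.51-fold. In Dclre1a, Cln6 and Gucy2c 1 or more wild type values lay below the floor, so their folds rest on the floor in part.

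In the hormone axis, ligands and receptors changed in both directions. The ligand Igf1 read 1170.3, 1596, 1278 and 1089.6 in dwarf and 5131, 4498, 3905 and 4206 in wild type liver (log2 -1.80 ± 0.16) on its probe set of highest mean. Its other probe set gave a larger fall, -3.96 ± 0.28, with 333, 799.9, 773 and 521 against 8743, 10811, 8833 and 7452. Its serum partner Igfals, the acid-labile subunit, read 70.4, 126, 98.5 and 64.6 and 3419, 2739, 3303 and 3268. For neither gene did the genotypes overlap. The other ligand of the family, Igf2, which adult mouse liver normally keeps low, was 2.96-fold higher (422, 283, 551 and 696 against 178, 171, 152 and 129.5). The receptor for growth hormone, Ghr, fell by a log2 of 0.56 on its brightest probe set (2441, 2744, 2534 and 2978 against 3502, 4393, 4340.1 and 3601, adjusted p = 0.00528), while its other probe set, with wild type animal 88 at 3230 and the other wild type mice at 996 to 1136, was not called (-0.91, adjusted p = 0.095). Igf1r, the receptor for IGF-1, rose 3.37-fold from a low signal (346 to 693 against 91.4 to 246).

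Of 5 binding proteins tested 2 rose, Igfbp1 and Igfbp2, and the other 3 were not called. Igfbp1, which insulin represses, read 16385, 3520.1, 10857 and 8889 in dwarf and 336, 283, 291 and 158 in wild type liver, so the dwarf mice spread widely among themselves, with animal 85 the lowest, and still lay far above every wild type mouse. Igfbp2 read 18452, 9311, 16762 and 17123 against 1194, 1671, 2249 and 2993 (7.79-fold higher), with animal 85 again the lowest of the dwarf mice. Igfbp3, the main partner of IGF-1 and the acid-labile subunit in serum, had a log2 difference of 1.13 ± 0.42 and was not called (adjusted p = 0.0866), its other probe set had -0.37 ± 0.53, Igfbp4 had -0.00 ± 0.16 and Igfbp7 -0.52 ± 0.64. Of the feedback inhibitors that growth hormone induces, Socs2 was not called at this age (-0.89 ± 0.29, adjusted p = 0.0569), with 224, 196, 263 and 233 in dwarf liver and 310.3, 758, 444 and 304 in wild type liver. Cish (0.08 ± 0.30) and Socs3 (-1.15 ± 0.52) were not called either. Over the whole axis, 5 of 20 tested genes were higher and 3 lower, with a median of 0.04.

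The promoter of Igfbp1 is the window in which the insulin response element of this gene was described, and the 300 bases around its start (RefSeq, GRCm38.p6, chr11:7197537-7197836, plus strand, 250 before and 50 after the start) are shown because this gene had the largest rise. Capitals mark CAAAACA, searched on both strands, which begins 108 bases before the start and is a core of the sequence that FOXO factors bind. It was present in 1 of the 19 growth hormone and IGF genes with a window. Over 4423 tested genes with a window the share was 5.29%. A gene counted when any of its windows held the word. Over all 32851 windows, counted singly, the share was 6.28%.
Igfbp1: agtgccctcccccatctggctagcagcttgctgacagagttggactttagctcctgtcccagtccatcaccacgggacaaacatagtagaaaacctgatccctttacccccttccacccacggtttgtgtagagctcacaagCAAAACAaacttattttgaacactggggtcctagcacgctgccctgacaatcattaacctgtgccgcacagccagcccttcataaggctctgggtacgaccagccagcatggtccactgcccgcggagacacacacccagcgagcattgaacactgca
Of the higher genes 8.40% and of the lower genes 5.25% held this word, which is a match of letters and not evidence that a factor was bound.

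In the insulin pathway 3 of 11 genes rose and 0 fell, with a median of 0.14 that turned to -0.06 with a common median. There, with quantile normalization and without animal 88 1 of them was called. Irs2, the insulin receptor substrate that fasting induces in liver, read 730.5, 282, 672 and 282 against 188, 101, 209 and 95.3. Animals 83 and 87 were high and animals 85 and 89 lower, still above the wild type mice, and the call was lost without any 1 of 5 arrays (adjusted p up to 0.115). Sgk1, a kinase downstream of PI3-kinase and of glucocorticoids, was 2.56-fold higher (962, 333, 591 and 508 against 222, 154, 238 and 274), and Pik3ca, the catalytic subunit of PI3-kinase, 1.63-fold, a call lost without any 1 of 6 arrays (up to 0.073). Akt1 (0.14 ± 0.23), Akt2 (0.06 ± 0.22) and Foxo3 (-0.10 ± 0.18) were not called.

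Of 17 genes of the thyroid hormone response, 5 fell and 1 rose (median -0.25), and without animal 88 3 fell. Dio1, the type 1 deiodinase that converts thyroxine to its active form, read 28.6, 63.3, 6.1 and 16.1 in dwarf liver, at the floor in 3 of 4 mice, and 255, 254, 306 and 422 in wild type liver. Thrsp, the Spot 14 protein of lipogenesis, read 343, 675, 189 and 352 against 5364, 11451, 10476 and 10878, with wild type animal 82 lower than the other 3. Gpd2, the mitochondrial glycerol phosphate dehydrogenase, was 2.46-fold lower (78.5, 172, 229.8 and 245 against 256, 416, 430.0 and 612), and Klf9, a zinc finger factor induced by the hormone, was 1.53-fold lower. Without animal 88 Gpd2 was not called (adjusted p = 0.055), and Klf9 was lost without any 1 of 6 arrays (up to 0.112). The receptor gene Thra rose (0.55 ± 0.16, adjusted p = 0.0321), and the main hepatic receptor Thrb had 0.35 ± 0.52 with overlapping arrays.

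**Figure D2:**
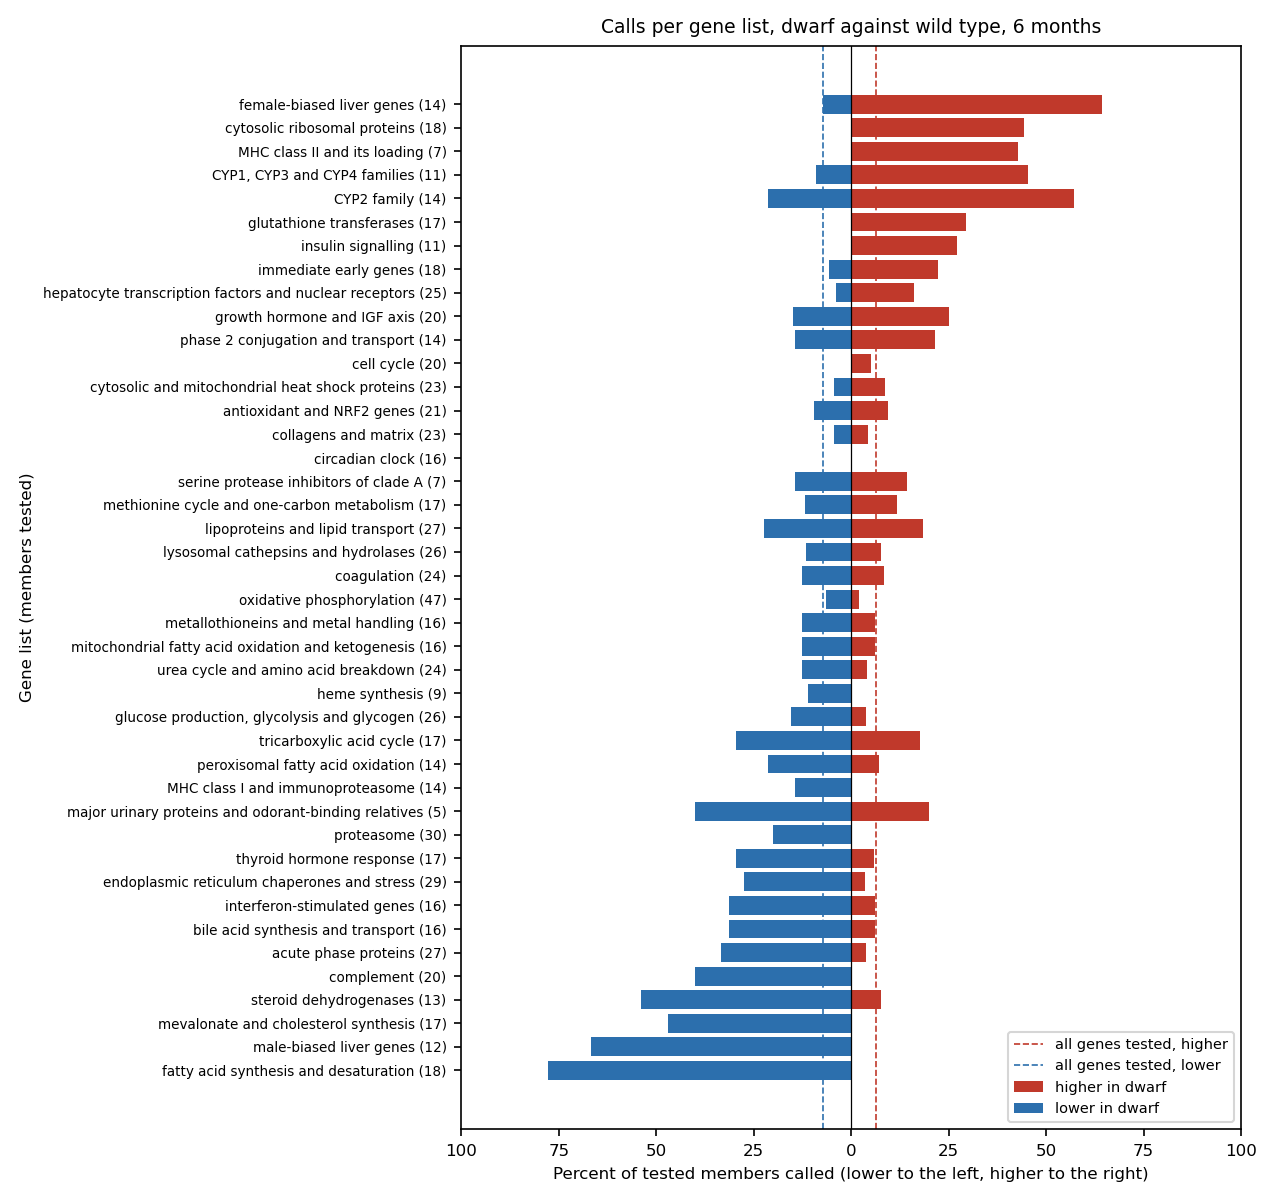
Percent of the tested members of each gene list that were called lower (blue, to the left) or higher (red, to the right) in dwarf liver of 6 months, with the number of tested members in brackets and the percent over all tested genes (7.09% lower, 6.30% higher) as dashed lines. Fatty acid synthesis, male-biased and sterol synthesis genes extend far left, female-biased genes far right, and the circadian clock list has no bar.

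Genes of the male liver pattern were lower in dwarf liver for 8 of 12 tested (median -2.27), and none was higher. Hsd3b5, a steroid dehydrogenase of male liver, read 133, 146, 104 and 33.5 against 4603, 9521, 9938 and 4398. Wild type animals 84 and 86 stood well above animals 82 and 88. The urinary proteins Mup5 (4106, 2117, 2602 and 2624 against 26343, 25998, 32508 and 29769.9) and Mup3 (11280.1, 7619, 6656 and 10248 against 31510.0, 36026, 38965 and 36915) kept high signals in dwarf liver while falling 10.3-fold and 4.09-fold, and both probe sets may detect other members of that family. Keg1, a glycine acyltransferase-like enzyme, fell 8.68-fold (379, 420.0, 461 and 205 against 2443, 3504, 3977 and 2507) and the male P450 Cyp4a12b 5.71-fold (1192, 2054, 1488 and 1208 against 7633, 6686, 7879 and 11654). C9, the last component of the complement pore, fell 6.39-fold (1717, 2341, 1821 and 1465 against 10133, 12988, 11117 and 12210.0). Cyp2d9 (0.03 ± 0.17), Gstp1 (0.13 ± 0.13), Selenbp1 (-0.10 ± 0.20) and Hsd11b1 (0.36 ± 0.12) of the same list were not called. The fall was therefore not shared by every gene of the male pattern.

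Genes of the female pattern were higher for 9 of 14 (median 1.78), with 1 lower. Cyp2b13 read 2431, 3074, 2178 and 2802 against 128, 145, 24.8 and 144 and its relative Cyp2b9 7273, 6207, 5246 and 7330.1 against 3120.3, 692, 676 and 1684. The wild type mice varied more in Cyp2b9, where animal 82 reached 3120.3, than the dwarf mice did. The sulfotransferase Sult2a2 read 812, 1387, 1193 and 551 against 22.4, 84.6, 38 and 92, and Hao2, a peroxisomal hydroxyacid oxidase, 961, 1179, 643 and 858 against 273, 56.2, 111 and 143. The omega-hydroxylases Cyp4a14 (8408, 5778, 7335 and 8488 against 1534, 729.5, 961 and 1191) and Cyp4a10 (3735, 3336, 3733 and 5644 against 975, 1030.0, 1019.5 and 1229.5) rose 6.97-fold and 3.8-fold. Rtn4, a reticulon of the endoplasmic reticulum, was the lower member (-0.65 ± 0.18), and Fmo1 (0.01 ± 0.15), Cyp3a16 (0.37 ± 0.35), Cyp17a1 (0.91 ± 0.48) and Vldlr (0.78 ± 0.33) were not called. The counts of both sex-pattern lists were the same with a common median and with quantile normalization.

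Drug-metabolizing enzymes moved in both directions. In the CYP2 family 8 of 14 rose and 3 fell, and with a common median 5 rose. The Cyp2c genes split: Cyp2c38 (15656, 14109.8, 18857 and 26016 against 7047, 6867, 6197 and 6281) and Cyp2c39 (3.1-fold) rose, and Cyp2c70, which hydroxylates bile acids in mice, fell 2.02-fold (3530.2, 3283, 2006 and 3066 against 5405, 7371, 8084 and 3695). Cyp2f2, a lung and liver enzyme that activates naphthalene, fell 6.51-fold (725, 1383, 1119 and 862 against 5836, 4312, 6834 and 10130.5). Nr1i3, the constitutive androstane receptor that drives Cyp2b genes, was 2.17-fold higher, with 4512, 6417, 5853 and 5443 in dwarf liver and 2004, 2165, 2160.5 and 4433 in wild type liver, where animal 88 stood at about the level of the dwarf mice. In the CYP1, CYP3 and CYP4 families 5 of 11 rose and 1 fell, with a common median 3 rose and 3 fell, and without animal 88 3 rose and 1 fell. Cyp3a11, the main mouse CYP3A enzyme, was 1.55-fold higher (27914, 23758, 34517 and 28293 against 17909, 19254, 18025 and 17924).

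Among the glutathione transferases, which couple electrophiles to glutathione, 5 of 17 rose and 0 fell (median 0.45), with a common median 3 rose and 2 fell, and with quantile normalization 7 rose and 2 fell. Gstm1, an abundant mu-class enzyme, read 48425, 41298, 48701 and 39654 against 22792, 25569.8, 27182 and 26488, and Mgst3, a membrane-bound relative, 2069, 1669, 1773 and 1294 against 771, 500.3, 514 and 828. Gstt2 rose 2.1-fold with nearly touching groups (5274, 3331, 2681 and 5068 against 1553, 1479, 2497 and 2127). Of 14 conjugation and transport genes 3 rose, all of them sulfotransferases (Sult2a2, Sult1a1 and Sult1d1), and 2 fell, Ugt2b5 (1.94-fold, a glucuronosyltransferase) and Ephx1 (-0.65 ± 0.17, microsomal epoxide hydrolase). More of them fell under other settings: 5 without animal 88, 6 with a common median and 5 with quantile normalization, beside 3, 3 and 4 that rose. In the antioxidant list, 2 of 21 rose (Gpx3 and Srxn1) and 2 fell (Gclm and Prdx3), of which Gpx3 and Gclm were each lost without any 1 of 5 arrays (adjusted p up to 0.0877 and 0.0912), and Nqo1 (0.58 ± 0.47) and Hmox1 (0.07 ± 0.20) were not called.

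Fatty acid synthesis was the list with the largest share of calls in 1 direction: 14 of 18 genes fell and 0 rose (median -0.94), and 13 fell without animal 88. The supply of NADPH and carbon was included. Malic enzyme Me1 read 377, 306, 119.7 and 407 against 2705, 3454, 3577 and 2578, the citrate carrier Slc25a1 fell (-0.70 ± 0.14) and so did ATP citrate lyase, Acly (-0.88 ± 0.23). Fasn, which assembles palmitate, read 911, 732, 422 and 929 against 2813, 4798, 3642 and 5262. The elongase Elovl5 read 5797, 6455, 3532 and 6241 against 20687, 21068, 21584 and 21529, with the wild type mice close together. Elovl6 (3.56-fold), the desaturases Scd1 (-0.81 ± 0.21) and Fads1 (-0.66 ± 0.13) and Gpam, which starts triglyceride assembly, fell as well. Srebf1, the transcription factor of this program, read 2895, 2931, 1621 and 2002 against 5581, 5485, 5632 and 9011. The members that were not called were Scd2 (0.89 ± 0.44), Elovl1 (0.30 ± 0.24), Elovl2 (-0.50 ± 0.21) and Pgd (-0.58 ± 0.28). Animal 87 had the lowest dwarf signal for Thrsp, Me1, Fasn, Elovl5 and Srebf1.

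In the mevalonate and cholesterol pathway 8 of 17 genes fell and 0 rose (median -0.76). Hmgcs1, the first committed step of the mevalonate pathway, read 767, 1039.9, 566 and 853 against 1806, 2507, 1547 and 1864. Idi1, isopentenyl diphosphate isomerase, read 599, 533, 269 and 536 against 1288, 2847, 2329 and 1338, and Fdps, farnesyl diphosphate synthase, 2420.0, 2860.1, 956 and 1022 against 3743, 6204, 4452 and 5133. Later steps that fell were Sqle (167, 387, 209 and 212 against 510.1, 998, 743 and 651), Cyp51 (-1.20 ± 0.33), Msmo1 (306, 616, 211 and 312 against 728, 1042, 847 and 924), Ebp (-0.76 ± 0.17) and Sc5d (-1.18 ± 0.21). Wild type animal 84 had the highest signal of all 8 mice for Hmgcs1, Idi1, Fdps, Sqle, Cyp51 and Msmo1. Steps between them were not called: Fdft1, squalene synthase, had 0.47 ± 0.18, Lss, which closes the sterol ring, -0.30 ± 0.24, and Nsdhl -0.20 ± 0.21.

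The promoters of 3 of the genes that fell are shown because all 14 genes of this pathway with a window held a CCAAT word. Of these genes 6 fell and 8 were not called. The word was held by 42.9% of tested genes with a window, again counting a gene when any of its windows held it. Of all windows, counted singly, 37.4% held it. CCAAT, searched on both strands, is read by the factor NF-Y, which works beside SREBP at sterol-regulated genes. Capitals mark it or, on the opposite strand, ATTGG. The windows have 300 bases each (RefSeq, GRCm38.p6): Hmgcs1 at chr13:119690101-119690400 and Idi1 at chr13:8885356-8885655 on the plus strand and Msmo1 at chr8:64733529-64733828 on the minus strand.
Hmgcs1: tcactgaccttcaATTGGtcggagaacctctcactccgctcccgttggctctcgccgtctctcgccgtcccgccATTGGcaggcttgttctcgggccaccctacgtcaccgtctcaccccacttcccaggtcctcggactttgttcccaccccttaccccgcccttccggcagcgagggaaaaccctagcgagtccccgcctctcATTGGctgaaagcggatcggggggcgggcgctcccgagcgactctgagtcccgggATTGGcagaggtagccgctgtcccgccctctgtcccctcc
Idi1: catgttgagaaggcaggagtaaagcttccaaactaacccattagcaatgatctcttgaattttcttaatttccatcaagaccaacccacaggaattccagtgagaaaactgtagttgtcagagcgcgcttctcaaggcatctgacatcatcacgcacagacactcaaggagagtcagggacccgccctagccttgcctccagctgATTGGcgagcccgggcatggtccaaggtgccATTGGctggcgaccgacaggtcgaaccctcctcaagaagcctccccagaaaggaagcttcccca
Msmo1: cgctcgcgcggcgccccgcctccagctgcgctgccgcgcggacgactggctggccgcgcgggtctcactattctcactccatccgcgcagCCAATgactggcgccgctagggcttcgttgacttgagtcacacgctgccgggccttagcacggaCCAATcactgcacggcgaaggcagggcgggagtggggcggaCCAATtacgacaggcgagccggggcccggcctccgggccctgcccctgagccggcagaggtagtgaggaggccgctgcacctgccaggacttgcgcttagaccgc
Hmgcs1 held 4 matches and Idi1 2, all on the opposite strand, and Msmo1 held 3 on its own strand. Since the word was as frequent among genes of the pathway that were not called, it does not separate the genes that fell from the rest. The sterol regulatory element was searched as its classical sequence alone. It was in 0 of these 14 genes, 0 of 15 fatty acid synthesis genes and 0.181% of tested genes with a window.

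Of 16 bile acid genes 5 fell and 1 rose (median -0.44). Cyp7b1, the oxysterol hydroxylase of the alternative pathway and also a male-pattern gene, read 949, 979.9, 1139.8 and 909 against 2049, 3392, 3034 and 1957. Hsd17b4, the bifunctional peroxisomal protein that shortens the side chain, read 2585, 1562, 2096 and 2167 against 5029, 4628, 4069.9 and 4824, and Scp2, the thiolase that follows it, was 1.96-fold lower (7145, 4859.8, 7341 and 5014 against 12135, 7628, 18018 and 11346). Abcb4, the phospholipid pump of the canaliculus, was 1.77-fold lower. Nr5a2, a nuclear receptor that activates bile acid synthesis, rose (0.49 ± 0.15). Cyp7a1, the rate-limiting enzyme, varied so much between wild type mice (25.1, 180.1, 105 and 427) that its difference of 0.02 ± 0.49 has no settled sign.

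In lipid transport 5 of 27 genes were higher and 6 lower, and with a common median 1 was higher and 6 lower. Apoa4, an apolipoprotein of chylomicrons and high density lipoprotein, read 669, 539, 434 and 456 against 2808, 2289, 1912 and 2809.7. Mttp, which loads lipid onto apolipoprotein B, fell 2.1-fold, Pltp, which transfers phospholipid between lipoproteins, 5.26-fold (453, 273, 240.4 and 360.5 against 1607, 1621, 1238 and 2554), and Plin2, the coat of lipid droplets, 3.16-fold (3755, 2768, 3289.5 and 4209 against 10833, 9154, 10509.9 and 13841). Fabp1, the liver fatty acid binding protein, fell less (-0.79 ± 0.14) than Fabp2. In the opposite direction Lpl, lipoprotein lipase, which adult hepatocytes hardly make, read 3996, 2529.8, 2639 and 3596 in dwarf liver and 232, 408, 398 and 40.6 in wild type liver. Of the 9 adipocyte markers on the chip, Lpl and Pparg (2.51-fold, lost without any 1 of 3 arrays, adjusted p up to 0.0776) were called higher. The other tested ones, Fabp4 (0.65 ± 0.41), Lep and Cidea, were not called. Adipoq read 40.7 to 136 in dwarf and 64.8 to 87.3 in wild type liver, and Retn and Cidec lay below the floor on all 8 arrays. The summed signal of the tested adipocyte markers was 3970.0 to 5338 in dwarf and 1256 to 1668 in wild type liver. Lpl itself is in that sum, so the sum says nothing separate about the Lpl difference. The part of adipocytes in the Lpl difference was not tested.

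In the peroxisome 3 of 14 genes of fatty acid oxidation fell and 1 rose. Abcd3, a carrier of the peroxisomal membrane, read 5440.5, 5731, 7507 and 6753 against 15007, 17102, 19732 and 15652, and its relative Abcd2 rose 4.52-fold (774, 198, 236 and 243 against 31.6, 104, 66.8 and 39.3), with animal 83 far above the other dwarf mice. In mitochondrial fatty acid oxidation 1 of 16 rose (Acadm, the medium-chain dehydrogenase, 0.51 ± 0.11) and 2 fell (Cpt2, -0.67 ± 0.13, and the carnitine carrier Slc25a20, -0.50 ± 0.16, lost without any 1 of 6 arrays, adjusted p up to 0.122). With a common median 0 of the 16 rose and 5 fell. Ppara, the receptor that drives both pathways, was not called (-0.41 ± 0.16, adjusted p = 0.11).

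The citric acid cycle had 3 of 17 genes higher and 5 lower, and with a common median 1 and 5. The isocitrate dehydrogenases went opposite ways: the mitochondrial Idh2 read 2469, 2241, 2010.2 and 2430.0 against 803, 481, 739 and 970.3 (3.14-fold higher) and the cytosolic and peroxisomal Idh1 1514, 1758, 1542 and 1179 against 2629, 3086, 3034 and 3475 (2.05-fold lower). Neither overlapped. Citrate synthase Cs (-0.63 ± 0.14), Dlst (-0.76 ± 0.15), Sucla2 (-0.58 ± 0.14) and Sdha (-0.57 ± 0.12) fell, and Ogdh (0.67 ± 0.17) and Sdhd (0.50 ± 0.12) rose. Of 47 genes of oxidative phosphorylation 1 was higher and 3 were lower, Cycs, cytochrome c (-0.91 ± 0.17), among them, and the median was 0.08, near that of all genes.

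In glucose metabolism 4 of 26 genes fell and 1 rose. Pklr, liver pyruvate kinase, read 573, 935, 602 and 651 against 1278, 1549, 1897 and 1989.6, and Gbe1, the glycogen branching enzyme, 178, 295, 316 and 288 against 434, 476, 478 and 533, with dwarf animal 83 the lowest. Ugp2, which makes the glucose donor of glycogen synthesis, read 4412, 3717, 5570.3 and 5112 against 1401, 1752, 2175 and 1277, 2.88-fold higher. Gcgr, the glucagon receptor, was lower (-0.60 ± 0.18). The gluconeogenic enzymes Pck1 (0.48 ± 0.21), G6pc (-0.04 ± 0.44) and Fbp1 (0.03 ± 0.13) were not called. In the urea cycle and amino acid list 1 of 24 rose and 3 fell, and in the methionine list 2 of 17 rose and 2 fell. The largest of these differences were in Ddc, which decarboxylates aromatic amino acids (3.86-fold lower, 688, 476, 211 and 180.4 against 1698, 1209, 1208 and 1110.0), and in Csad, an enzyme of taurine synthesis (2.06-fold lower, 642, 635, 615 and 629 against 1036, 1773, 1120.1 and 1375). Cps1, the first enzyme of the urea cycle, was 1.51-fold higher. Of 9 genes of heme synthesis 1 was called, Alas2, the erythroid isoform of its first enzyme, which read 693, 792, 525 and 400.1 against 3016, 3011, 2985 and 4084. Of the other tested erythroid markers, Hba-a1 (0.07 ± 0.37), Hbb-b2 (-0.44 ± 0.37), Epor (0.76 ± 0.47) and Klf1 (-0.29 ± 0.38) were not called. In the list of metal handling 1 of 16 rose and 2 fell, and with a common median 5 fell. Mt1, a zinc-binding metallothionein, rose (27275, 34166, 23115 and 21558 against 17696, 3051, 4674 and 9709, with wild type animal 82 nearest to the dwarf mice), and Hfe and Hamp, the hepcidin gene, fell 2.33-fold and 2.08-fold, Hamp losing its call without any 1 of 7 arrays (adjusted p up to 0.149). Mt2 had 1.19 ± 0.40 and was not called (adjusted p = 0.0612).

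Plasma proteins of the acute phase fell for 9 of 27 genes and rose for 1 (median -0.31), or for 4 with quantile normalization. Orm1, alpha-1-acid glycoprotein, read 352, 918, 142 and 193 against 12047, 8336, 5984 and 8778. Saa2, serum amyloid A, read 852, 1213, 336 and 491 against 35619, 9282, 1525 and 18975 on a probe set that may detect related transcripts, and Lrg1, a leucine-rich glycoprotein, 1639.5, 1400.2, 1290.1 and 1148 against 11265, 6648, 2598 and 10911. Wild type mice differed widely in these genes, and animal 86 was the lowest wild type mouse for Orm1, Saa2, Lrg1, Orm3 and Saa4. Apcs, serum amyloid P, read 3692, 4066, 2213 and 2157 against 15196, 13030.4, 8976 and 8179, and Itih1, a heavy chain that binds hyaluronan, 1477, 868, 852 and 1033 against 2806, 2538, 2694 and 2842. Il1rn, the antagonist of interleukin-1, was the member that rose (1079, 576, 1262 and 1817 against 118, 39.2, 91.4 and 42.3). Haptoglobin Hp (0.17 ± 0.14), hemopexin Hpx (-0.21 ± 0.11), Saa3 (-0.33 ± 0.63) and Lcn2 (0.55 ± 0.21) were not called.

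Complement genes fell for 8 of 20 and rose for 0 (median -0.31). They lay at several steps. The lectins Mbl1 (928, 482, 389 and 341 against 2251, 1479, 1297 and 1129) and Mbl2 (-0.75 ± 0.13) and their protease Masp1 (-0.79 ± 0.18) start the cascade, C4bp (5610.5, 5453, 3876 and 4306 against 10345, 9806, 7965 and 8629) and Serping1 (-0.73 ± 0.15) restrain it, and Hc (-0.57 ± 0.15), which is complement C5, C8g (6682, 4758, 4105 and 4005 against 13684, 12046, 12213 and 12757) and C9 form the pore. The C1q genes, which are made by macrophages, were not called: C1qa had -0.11 ± 0.24, C1qb 0.38 ± 0.19 and C1qc -0.02 ± 0.18. In coagulation 3 of 24 fell and 2 rose. F12, which starts contact activation, was 2-fold lower and F9, a vitamin K-dependent factor, 1.71-fold, while Hrg, histidine-rich glycoprotein, was 1.57-fold higher. Serpina6, which encodes corticosteroid-binding globulin, read 21460.3, 31596, 28057 and 31064 against 9219.5, 6414, 11122 and 11706, 2.96-fold higher. Of 8 hepatocyte markers 4 rose, Alb, Apoa1, Ahsg and Cps1, by log2 0.44, 0.47, 0.46 and 0.59, and 1 fell, Fgb (-0.51 ± 0.16, adjusted p = 0.0419), while Ttr had -0.39 ± 0.18 and was not called. With a common median 0 of the 8 rose and 1 fell. Without 1 array at a time Alb was lost in 5 cases (adjusted p up to 0.0963), Apoa1 in 4 (0.107) and Ahsg in 6 (0.104).

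Genes of the endoplasmic reticulum, where secreted proteins are folded, fell for 8 of 29 and rose for 1 (median -0.25). The protein disulfide isomerases Pdia6 (372, 534, 563 and 241 against 1070.2, 683, 768 and 1763) and Pdia3 (711, 594, 418 and 538 against 1528, 1335, 1449 and 652) were among them, with wild type animal 88 the highest of its group in Pdia6 and the lowest in Pdia3. Manf, a secreted stress-induced factor, read 633, 569, 589.7 and 401 against 1177, 1484, 1122 and 1187. Hspa5, the chaperone BiP, read 3448, 2822, 2817 and 3299.6 against 4969.8, 5829, 4567 and 3754, and its cochaperones Dnajc3 (-0.86 ± 0.26) and Dnajb11 (-0.81 ± 0.22) fell too. Xbp1, a transcription factor of the unfolded protein response, was 1.44-fold lower. Ddit3, the proapoptotic factor CHOP of the same response, was 1.59-fold higher. Hsp90b1 (-0.10 ± 0.11), Canx (0.11 ± 0.18), Atf4 (0.22 ± 0.24) and Herpud1 (0.44 ± 0.18) were not called.

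The endoplasmic reticulum stress element, to which the factors ATF6 and NF-Y bind, is a CCAAT word, a spacer of 9 bases and CCACG. It was found on either strand, in any window of a gene, in 6 of 25 of these genes and in 0.203% of tested genes with a window. Of all windows, counted singly, 0.119% held it. The 6 were Hspa5, Pdia6 and Dnajc3, which fell, and Hsp90b1, Canx and Creld2, which were not called, with a median log2 difference of -0.48 against -0.25 in the 19 without it. Windows of the 3 that fell are shown with the element in capitals (RefSeq, GRCm38.p6, plus strand): Hspa5 at chr2:34771840-34772139, Pdia6 at chr12:17266339-17266638 and Dnajc3 at chr14:118937682-118937981.
Hspa5: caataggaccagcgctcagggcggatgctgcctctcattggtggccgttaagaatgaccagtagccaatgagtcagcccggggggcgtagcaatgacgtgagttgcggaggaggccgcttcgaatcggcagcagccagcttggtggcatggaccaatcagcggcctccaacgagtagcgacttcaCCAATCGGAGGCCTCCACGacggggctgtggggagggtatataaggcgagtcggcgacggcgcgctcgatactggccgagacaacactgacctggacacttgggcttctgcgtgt
Pdia6: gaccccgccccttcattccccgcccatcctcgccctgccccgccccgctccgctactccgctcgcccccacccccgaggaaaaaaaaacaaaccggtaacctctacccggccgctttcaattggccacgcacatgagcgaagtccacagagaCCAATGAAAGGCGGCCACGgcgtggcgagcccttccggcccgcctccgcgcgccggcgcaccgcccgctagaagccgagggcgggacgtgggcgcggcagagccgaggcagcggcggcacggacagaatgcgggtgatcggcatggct
Dnajc3: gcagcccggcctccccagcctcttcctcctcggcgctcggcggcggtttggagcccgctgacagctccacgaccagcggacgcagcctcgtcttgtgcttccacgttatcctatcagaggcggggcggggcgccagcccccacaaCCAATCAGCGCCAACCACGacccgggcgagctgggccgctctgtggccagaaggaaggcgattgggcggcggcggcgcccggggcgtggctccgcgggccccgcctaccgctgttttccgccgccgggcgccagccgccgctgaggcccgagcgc
The element began 65 bases before the start in Hspa5, 98 in Pdia6 and 105 in Dnajc3. In these 3 genes the log2 differences were -0.61, -1.30 and -0.86.

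**Figure D3:**
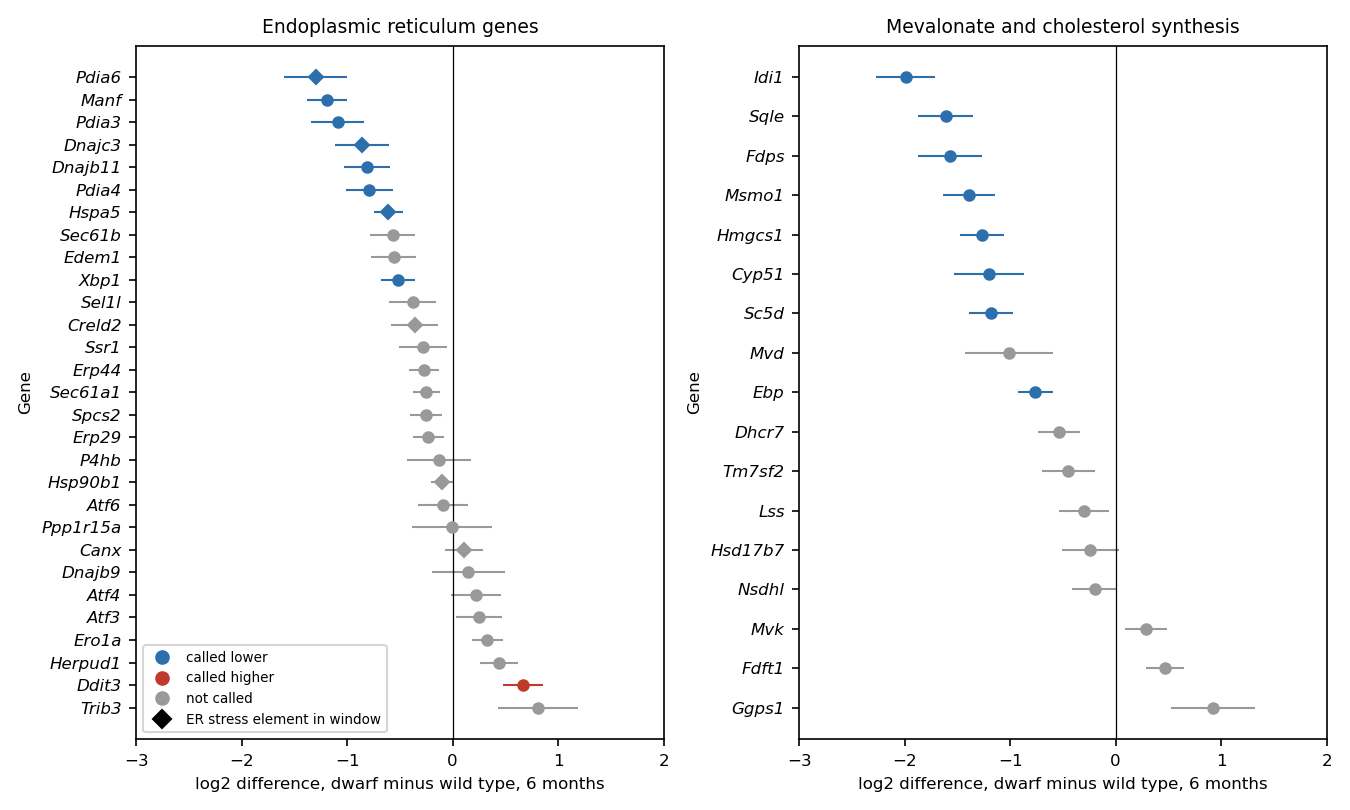
log2 difference, dwarf minus wild type at 6 months, with its standard error (bars), of each tested gene of the endoplasmic reticulum list (left) and of the mevalonate and cholesterol list (right). Blue marks genes called lower, red higher and grey not called, and diamonds mark genes with the endoplasmic reticulum stress element in the promoter window, which stand among called and uncalled genes alike.

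Protein turnover showed 6 of 30 proteasome genes lower and 0 higher (median -0.23). They came from the core particle (Psma4, Psma5, Psmb5) and from the regulatory cap (Psmc2, 1157, 639, 744 and 975 against 1666, 1521, 1585 and 1710.3, Psmd6 and Psmd14). For Psmb5 a dimmer probe set was not called (0.21 ± 0.16). Of 18 cytosolic ribosomal proteins 8 were higher and 0 lower (median 0.41), for example Rps18 (24355, 18137, 21475 and 20875 against 14134, 15466, 14935 and 10540.1), and with a common median 0 of them were called. With quantile normalization 8 were called higher, and without animal 88 it was 4. In the lysosome 2 of 26 rose, Npc1, which exports cholesterol (2.48-fold), and Hexa (0.69 ± 0.17), and 3 fell, the cathepsin Ctsc (46.9 to 139.5 against 387 to 766), Ctse and Lamp2.

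Interferon-stimulated genes fell for 5 of 16 and rose for 1 (median -0.57), and with a common median 8 fell. Iigp1, a GTPase that attacks parasite vacuoles, read 791, 4384, 739.7 and 1164 against 3897, 4429.7, 4836 and 7176, with dwarf animal 85 inside the wild type range. Ly6e read 7196, 9175, 6145 and 6552 against 19482, 15478, 14807 and 14779.5, while a dimmer probe set of it was not called (0.48 ± 0.35). Usp18, which removes ISG15 from proteins, rose 6.22-fold (661, 606, 828 and 679.7 against 58.8, 160.1, 155 and 104). MHC class I genes had 2 of 14 lower and 0 higher, or 14.3% called, near the 13.4% of all tested genes. The 2 were H2-D1 (-0.44 ± 0.12, lost without animal 88 or 89, adjusted p up to 0.0654) and Pdia3, which is also in the endoplasmic reticulum list. Class II genes had 3 of 7 higher and 0 lower (median 0.91): H2-Aa (715, 1209.6, 289 and 931 against 151, 47.5, 79.3 and 91.9), H2-Eb1 (918, 1194, 841 and 1227 against 808, 367, 586 and 561) and the invariant chain Cd74 (2974, 3071, 1658 and 3019 against 1825, 997, 1356 and 1482). Animal 87 was the lowest dwarf mouse for all 3 genes, and Cd74 was lost without any 1 of 5 arrays (adjusted p up to 0.0833).

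Class II is carried by B cells, macrophages and dendritic cells, and markers of B cells and macrophages were looked at beside it. Of the B and plasma cell markers 3 of 7 rose, Cd79b (1.91-fold, 219, 223, 132 and 244 against 122, 98.7, 73.7 and 132), Ighm (1.66-fold) and Jchain (1.72-fold), and the summed signal of the tested markers was 3647 to 4068 in dwarf and 2638 to 3141 in wild type liver. Its part in the class II difference was not tested. These calls were lost without any 1 of 6 arrays for Cd79b, 4 for Ighm and 5 for Jchain (adjusted p up to 0.115, 0.0731 and 0.0864), and with a common median 0 of the 7 were called. Of the Kupffer cell and macrophage markers 0 of 10 were called (differences of -0.25 to 0.46), and 0 of 5 of neutrophils. Sinusoidal endothelial markers rose for 3 of 7: Stab1, a scavenger receptor (1026, 679, 883 and 1002 against 336, 489, 600.1 and 424), Kdr, the receptor for VEGF (1.73-fold, lost without any 1 of 3 arrays, adjusted p up to 0.0681), and Ramp2 (1.88-fold). Of the stellate cell markers Reln, which quiescent stellate cells secrete, rose (802, 777, 943 and 1198 against 422, 573, 592 and 489), 1 of 5. Pancreatic acinar markers were looked at because Cela1, an elastase, fell 4.08-fold (434, 389, 526 and 467 against 1492, 2140.0, 2347 and 1536), and the other 4 tested (Cela2a, Ctrb1, Cel and Reg1) were not called. Liver as the labelled tissue was borne out by its defining transcripts, with Alb at 51231 to 73753 in dwarf and 38093 to 45393 in wild type arrays, and of muscle markers 0 of 5 were called.

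In the list of hepatocyte transcription factors and nuclear receptors 4 of 25 rose (Foxa3, Nr1i3, Nr5a2 and Pparg) and 1 fell (Klf9), and with a common median 2 rose and 2 fell. Hnf4a varied between wild type mice (342, 223, 259.7 and 1355), with animal 88 the highest, and was not called. Among 18 immediate early genes 4 rose, Btg2 (1002, 916, 744 and 942 against 219, 243, 212 and 250.1), Jun (209.8, 336, 188 and 231 against 94.9, 53.8, 126 and 70.8), Egr1 and Btg1, and Gadd45a, a growth arrest and DNA damage gene, fell (48, 109.7, 100.5 and 38 against 317, 318, 309 and 404). Of 16 circadian clock genes 0 were called by limma (differences of -0.41 to 1.18). Of 20 cell cycle genes 1 was called, Birc5, survivin (2.3-fold higher), from a low signal and lost without any 1 of 5 arrays (adjusted p up to 0.0924). In the matrix list Fbln2 rose 2.67-fold and Col15a1 fell 4.68-fold, and the other 21 of 23 were not called. Steroid dehydrogenases fell for 7 of 13 and rose for 1, and besides Hsd3b5 the falls included Hsd17b12 (1210.3, 1283, 1066 and 1199 against 4031, 3683, 2995 and 3331) and Hsd17b2 (357, 376, 463 and 518 against 874, 1139.7, 1309 and 1108).

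Genes near the mutated locus were counted separately. Pou1f1 lies on chromosome 16, and of its 30 nearest tested genes (15 on each side) 2 were higher and 4 lower, against 20 called of 178 tested genes on that chromosome (11.2%) and 733 of 5473 over all. They were App, the amyloid precursor (2.26-fold higher, 5828, 4368, 5859 and 5195 against 2086, 2017, 2293 and 3081), Robo1, Nit2, an omega-amidase (2.34-fold lower, 632, 648, 507 and 427 against 1409, 1119.8, 1211 and 1403), 4930453N24Rik, Gbe1 and Usp25. At 22 months limma called 0 of the 30. No probe set was named for Pou1f1 itself in the annotation used. Over the chromosomes other than Y the share called ran from 6.95% (13) to 20.5% (X).

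The 22-month arrays were used to ask which of these differences differ with age. At 22 months 76 genes were higher (1.39%) and 81 lower (1.48%), from 3 against 3 arrays. Of the 345 genes higher at 6 months, 32 were also called higher at 22 months, 1 was called lower and 312 were not called. Of the 388 lower genes, 54 were also called lower, 2 were called higher and 332 were not called. The difference between the ages was itself called for 128 genes (2.34%), 31 of the higher and 67 of the lower genes of 6 months among them. In 28 of those 31 the difference was more positive at 6 months, and in 67 of those 67 it was more negative. These directions were largely set in advance, because the genes were chosen by the 6-month difference, which is part of that test. The test of the ages leaned on single arrays and settings: over probe sets it called 47 more positive and 111 more negative at 6 months, and with the 3' to 5' ratios of the controls as a covariate 11 and 46. Leaving out 1 old mouse gave 12 and 36 (dwarf animal 3), 24 and 64 (dwarf 4), 20 and 49 (dwarf 8), 21 and 64 (wild type 1) or 16 and 41 (wild type 24), and leaving out 1 young mouse gave as few as 26 positive (dwarf 89), 28 (dwarf 87) and 66 negative (wild type 82). For most genes called at 6 months alone the test of the ages was thus not passed, and a smaller difference in old mice is not shown for them.

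Genes that fell at 6 months and for which the ages differed included Wfdc21 (log2 -7.18 at 6 and -2.51 at 22 months), Thrsp (-4.70 and -0.27), Fabp2 (-3.93 and -0.81), Lonp2, a peroxisomal protease (-1.70 and 0.01), Hsd17b4 (-1.16 and 0.43) and S100a10 (-2.86 and 0.12). Genes that rose at 6 months and for which they differed included H2-Aa (2.98 and -0.90), Btg2 (1.96 and -0.56), Cd63 (2.56 and -0.07) and Ahnak (2.74 and -0.06). The 3 genes called in opposite directions at the ages were Foxa3, a pioneer factor of hepatocytes (0.71 and -0.74), 4931406C07Rik (-0.64 and 1.05) and Bphl, a hydrolase (-0.60 and 0.58). The probe sets of Bphl disagreed at 6 months, where a dimmer one was called higher (0.92 ± 0.27, adjusted p = 0.0344) and the other 2 were not called. Anxa8, Acot1, an acyl-CoA thioesterase, and Chpt1, of phosphatidylcholine synthesis, were called higher at 22 months alone. The test of the ages was passed by 1 of 12 tested genes of the male pattern (C9) and 1 of 14 of the female pattern (Cyp4a14), and not by Hsd3b5 (-6.01 and -6.10, difference adjusted p = 0.962), Egfr (-4.48 and -4.37, 0.93), Mup3 (-2.03 and -1.99, 0.962) and Cyp2b13 (4.56 and 4.43, 0.947). Of the lists, fatty acid synthesis had 14 of 18 genes lower at 6 months and 1 at 22 months, with the difference called for 4, and the male pattern had 8 of 12 and 7.

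**Figure D4:**
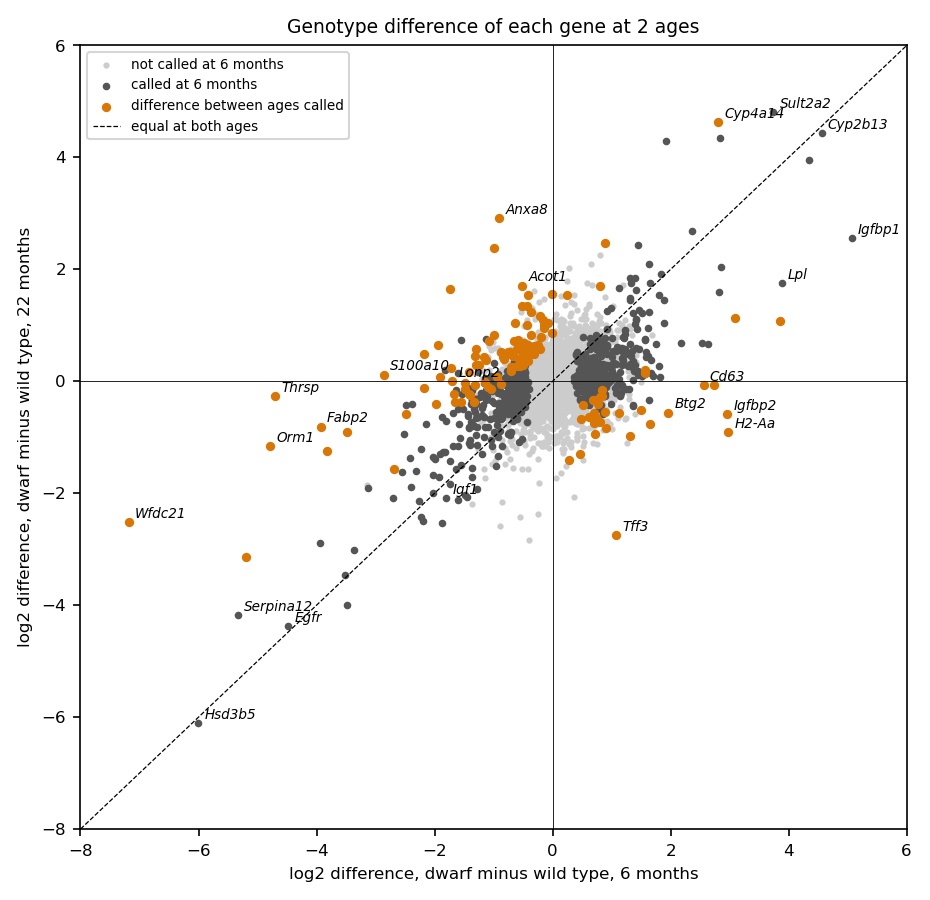
log2 difference, dwarf minus wild type, of each of the 5473 tested genes at 6 months (horizontal) and at 22 months (vertical), with genes not called at 6 months in light grey, called ones in dark grey and those whose difference between the ages was called in orange, and a dashed line where both ages are equal. Hsd3b5, Serpina12 and Egfr lie on or near the line, Thrsp near 0 on the vertical axis, and H2-Aa and Tff3 below the horizontal zero line.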

How the data were processed

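The files hold probe set intensities (MAS5 signals, named in the submitters' processing notes) as the authors deposited them, 1 column per array. The 2% trimmed mean was 500.4 on each array, so all were scaled to 1 target. Genotype and age of each array came from its label, and the animal number names it. No group shares a number with another.

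From these values, signals under the floor of 54.9 were raised to it and log2 was taken. Of 12422 non-control probe sets, the 7227 above 184.8 (the median) on at least 3 of 14 arrays were tested. Limma 3.58.1 (R 4.3.3) fitted 4 group means to all 14 arrays with an intensity trend, and Benjamini-Hochberg adjustment ran over all tested probe sets. Array measures were compared by exact two-sided permutation tests. A gene is shown by its probe set of highest mean log2 signal among those with 1 symbol in the annotation given for this chip (10855 probe sets had 1 symbol, 396 several and 1237 were not listed). Promoter windows and their coordinates are RefSeq's on GRCm38.p6, and 4423 of 5473 tested genes matched 1 or more by gene identifier.

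Data were simulated from these arrays with 200 changed probe sets among 7227. There the 6-month test recovered 10.5% at 1.5-fold, 61% at 2-fold and 97% at 4-fold. It made 1, 6 and 18 false calls at these folds. Recovery with more changed probe sets was not tested.

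Genes were named by rule: the 20 largest increases and decreases without overlap, up to 4 called genes of smallest p in each list, the 8 called genes of smallest p in each direction for the difference between ages and a set of 25 hormone and marker genes, of which 19 were tested. Suffixes marking possible detection of related transcripts (_f or _s) are carried by the probe sets of Alas2, Ang, Ctse, Cyp2c38, Cyp4a10, Cyp7b1, Eif2s3y, Ghr, Gpd2, Gstm1, Gstm3, H2-D1, Igfbp1, Ighm, Klf9, Laptm5, Ly6e, Mup3, Mup5, Pla2g12a, Pparg, Psmb5, Saa2, Sc5d, Scd2, Socs3, Sucla2, Ugt2b5 and Zap70, and suffixes marking relaxed probe choice (_r, _i or _g) by those of 4931406C07Rik, C1qb, Ctrb1, Cyp3a16, Dnajc3, Egfr, Elovl2, Igf2, Igfbp4, Lcn2, Mark2, Nqo1, Nr1i3, Srxn1 and Usp25. Further members of lists, the neighbours of Pou1f1 and the genes of the closing observations were named after their values were seen. The members and lists were chosen with earlier results of these data known. Alternatives in floor, filter, scaling, variance model, array weights, control ratios and arrays used were run on the same tests.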

Additional observations from a re-analysis of the deposited data

Results flagged for a closer look

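In each group of 4 arrays of 6 months, the highest or lowest value was compared with the rest for 178 named genes, and in 21 of 356 groups it stood apart by Dixon's criterion. Chance flags about 1 in 20 groups. Animal 88 gave 6 of them, animals 82 and 85 4 each, animal 87 3, animal 83 2 and animals 84 and 86 1 each.

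Among wild type mice, animal 88 stood high in Alas2 (4084), Ctse (3013), Gadd45a (404), Nr1i3 (4433) and Srebf1 (9011) and low in Pdia3 (652). Animal 82 was high in Gucy2c (93.7), Ly6e (19482) and Prdx3 (3285) and low in Thrsp (5364). Animal 84 was high in Cyp3a11 (19254), and animal 86 was low in Cyp2b13 (24.8, below the floor).

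Among dwarf mice, animal 85 was high in Anxa8 (158), Col15a1 (104) and Dio1 (63.3), in each case with the other 3 at or below the floor, and low in Igfbp2 (9311). Animal 87 was low in Cd74 (1658), Ctsc (46.9) and Idi1 (269). Animal 83 was high in Abcd2 (774) and low in Gbe1 (178).

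For 52 named genes the genotype difference itself differed between 6 and 22 months (limma, adjusted p under 0.05 over all tested probe sets, 4 against 4 and 3 against 3 arrays). Over all tested genes this difference between the ages was called for 128 of 5473 (2.34%). Many genes were named for a small p in this test or for their 6-month difference, which is part of it. Their count can therefore not be read as a share of all genes. The values listed for the named genes are the log2 difference at 6 months minus that at 22 months. The most negative, mostly genes lower in dwarf liver at 6 months, were Wfdc21 at -4.67, Thrsp at -4.42, Anxa8 at -3.82, Orm1 at -3.65, Fabp2 at -3.11 and S100a10 at -2.99. Ddc followed at -2.60, Ces3a at -2.59, Me1 at -2.58, Acot1 at -2.22 and Igfals at -2.05. Between -2 and -1.5 lay Alas2 (-1.89), Cyp4a14 (-1.83), Acaa1b (-1.82), Chpt1 (-1.78), Lonp2 (-1.70), 4931406C07Rik (-1.69), Hsd17b4 (-1.59), Pklr (-1.59) and Elovl5 (-1.57). Smaller negative values were those of Gbe1 (-1.38), Dlst (-1.29), Plin2 (-1.29), Abcd3 (-1.19), Hsd17b12 (-1.19), C8g (-1.17), C9 (-1.10) and Slc25a20 (-1.09). The list ended with Prdx3 (-0.96), Cpt2 (-0.92), Idh1 (-0.91), Gstm3 (-0.90), Sdha (-0.89) and Ghr (-0.88).

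In the positive direction H2-Aa had 3.88, Igfbp2 3.55, Ahnak 2.80, Il1rn 2.78, Cd63 2.63 and Btg2 2.51. Lower values were those of Gucy2c (1.95), Cd74 (1.74), Ang (1.68), Hspa1b (1.66), Foxa3 (1.44), H2-Eb1 (1.43), Serpina6 (1.37), Ighm (1.36) and Pik3ca (1.27). Reln had 1.10, Mark2 1.09 and Laptm5 0.95.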

How the results depend on the processing

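Over 13 other settings and 8 fits without 1 array of 6 months, no called named gene changed direction. Of 168 genes, 124 kept their call in every fit that tested them. The call was lost under 1 or more by 44, 27 of them without 1 array. With the filter at the 75th percentile 146 of the 168 were tested, and with a common median or quantile normalization 167. Probe sets higher in dwarf liver numbered 460, 279 from the 6-month arrays alone and 188 with a common median, where 846 were lower instead of 502. With the 3' to 5' ratios of the controls as a covariate 371 were higher and 460 lower. That setting lost 29 of the 168 named calls, more than any other. Without 1 array, 322 to 508 were higher and 384 to 590 lower. The difference between ages was more positive at 6 months for 47 probe sets and more negative for 111. The first count was 11 with the control ratios as a covariate, 18 with a common median, 18 with no filter and 20 with no intensity trend, and the second was 46 with the covariate, 51 with no filter and 44 with no trend. Without 1 array they ran from 12 to 52 and from 36 to 117. Cyp7a1, not called, moved from 0.02 to -0.16 (common median), -0.22 (floor at the 40th percentile) and -0.19 (quantile normalization), and from -0.45 to 0.54 without 1 array. The causes were not tested. Genes named only as further list members were followed through their list's counts. Dim probe sets limit the folds, since 19.5% to 26.8% of those on the 8 arrays lay at or below the floor. No paired analysis was possible because the groups share no replicate numbers.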

Other observations

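Some called genes outside the lists are given here, each picked after its value was seen, so they make no group of their own. Lower in dwarf liver at 6 months were Derl2, of the channel that takes proteins out of the endoplasmic reticulum (2.86-fold, 230.4, 295, 181 and 267 against 547, 707, 711 and 799), Qsox1, a sulfhydryl oxidase (3.5-fold), and Serp1, a translocon-associated protein (-0.99 ± 0.13). Tram1 (-1.15 ± 0.26), Slc35b1 (-1.12 ± 0.23) and Selenof (-0.91 ± 0.14) fell too, without overlap between the genotypes, and Ddost (-1.17 ± 0.36) and Fkbp11 (-1.42 ± 0.42) fell with overlapping arrays. In the pentose phosphate pathway, which feeds NADPH to lipogenesis, transketolase Tkt read 1004, 618, 531 and 516 against 1598, 1534, 1318 and 2702 and transaldolase Taldo1 425, 305, 243 and 364 against 694, 699.9, 631 and 803. For Tkt the ages differed (log2 -1.42 at 6 and 0.16 at 22 months, adjusted p by limma 0.0252).

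Picked in the same way were the following genes. Lifr, the receptor for leukemia inhibitory factor, read 844, 838, 611 and 1124 in dwarf and 2096, 2859, 3877 and 2618 in wild type liver, 3.35-fold lower, and was lower at 22 months as well (log2 -1.83). Aqp8, a water channel, read 1027, 1089.5, 646 and 536 against 3681, 3510.5, 3448 and 3657, 4.53-fold lower, and had a difference of -0.12 at 22 months. Errfi1, a feedback inhibitor of the EGF receptor, fell 2.71-fold (3954, 2725, 2682 and 1749 against 7261, 10898, 5865 and 5903). In the other direction, Agt, which encodes angiotensinogen, read 15733, 19080.2, 15773 and 12869 against 5638, 4038, 4389 and 6876, 3.07-fold higher, and was also higher at 22 months (log2 0.95). Plin4, a lipid droplet protein, and Cdkn1c, the cell cycle inhibitor p57, were higher at both ages (log2 1.83 and 1.92, and 1.31 and 1.46). Gabarapl1, an autophagosome protein of the ATG8 family, rose 2.13-fold (11433, 10074, 10582 and 11308 against 4631, 4722, 6257 and 4907) and was not called at 22 months.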
